A study of Mus musculus with 24 samples.

Results

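The 4 chromatin genes described here were measured in cultured mouse embryos 1 h after a heat shock: H2az1 and H3f3b, which encode the variant histones H2A.Z.1 and H3.3, Hmgn2, which encodes a nucleosome-binding high mobility group protein, and Nasp, which encodes a histone chaperone. Their values come from the probes whose platform annotation gives exactly 1 gene symbol, equal to H2az1, H3f3b, Hmgn2 or Nasp. These are 12 of 15360 probes. Slide type 1 held 11 of them among 7680 probes, of which 5 were for H2az1, 3 for H3f3b, 1 for Hmgn2 and 2 for Nasp. Slide type 2, which carries other probes, held 1, for Nasp, among 7680. The genes were selected on their measured heat shock ratios in these same arrays, so those ratios are a description and carry no test here.

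Heat-shocked embryos were held at 43 °C for 15 min and then at 37 °C for 1 h, and control embryos stayed at 37 °C. The strain and the stage of the embryos were not given in the sources used here. Total RNA of both groups was hybridised together on 24 arrays with 2 channels, from 3 numbered treatments, each on both slide types, and in both channel orders. For every treatment and slide type there were 2 arrays with heat-shocked RNA in channel 1 and 2 in the other order, and 1 of each pair has a suffix in its slide code whose meaning is not stated. The labels do not tell whether the treatments used separate embryos, so all errors speak of these 3 treatments only.

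The values are the authors' log ratios. Their log base and their numerator are not stated. Sides are therefore a convention, under which a positive value means more signal from heat-shocked RNA provided that the authors divided channel 1 by channel 2, and less if they divided the other way. Each unit stands for a 2-fold difference with base 2 and for a 2.72-fold one with the natural log. Hsph1, an Hsp110 chaperone, lay on the positive side on 12 of 12 arrays of slide type 1, with a mean log ratio of 2.28 ± 0.50 (SD, n = 3 treatments), and Hspb1, which encodes Hsp27, on 12 of 12 arrays of slide type 2, with 2.23 ± 0.05 (SD, n = 3 treatments). Both were chosen with their values known. The lowest r over all probes between 2 arrays that had the same channel order but came from different treatments was −0.34, on slide type 2, and 0.29 on slide type 1. With both orders averaged, the r between treatments over all probes was 0.70 to 0.80 (slide type 1) and 0.82 to 0.90 (slide type 2), so they ran the same way. Because the numerator is not stated, the direction is not settled, and a mirrored sign would exchange the sides of every value below. Each array was centred on its median. Without that step the median over all probes was 0.29 units on slide type 1 and 0.11 units on slide type 2. Only ratios were measured, so the level of a gene, and the identity of the tissue from its defining markers, could not be read from these values.

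Nucleosomes wind DNA around an octamer of the core histones. Most core histone protein is made during DNA replication from messages that end in a stem-loop and lack a poly(A) tail. Variant histones such as H2A.Z and H3.3 are made through the whole cell cycle from polyadenylated messages, and are placed into chromatin by dedicated complexes. H3.3 marks transcribed and regulatory chromatin, H2A.Z flanks many promoters, HMGN proteins bind nucleosomes and loosen their packing, and NASP holds soluble histones H3 and H4 before they are deposited. In bulk embryo RNA, fewer cells of a type and less RNA per cell cannot be told apart.

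The promoters of the 4 genes are shown as a description of their sequence, and no link to the array values was tested. Each sequence runs 5′ to 3′ along its gene's strand from 250 bases before to 50 bases after the start, as given by RefSeq on GRCm38.p6, and all 4 genes were found in that table. The H2az1 window is chr3:137864237-137864536 on the plus strand, that of H3f3b is chr11:116024455-116024754 on the minus strand, that of Hmgn2 is chr4:133967942-133968241 on the minus strand and that of Nasp is chr4:116627902-116628201 on the minus strand. Capitals mark the CCAAT motif, which is read as ATTGG where it lies on the other strand.
H2az1: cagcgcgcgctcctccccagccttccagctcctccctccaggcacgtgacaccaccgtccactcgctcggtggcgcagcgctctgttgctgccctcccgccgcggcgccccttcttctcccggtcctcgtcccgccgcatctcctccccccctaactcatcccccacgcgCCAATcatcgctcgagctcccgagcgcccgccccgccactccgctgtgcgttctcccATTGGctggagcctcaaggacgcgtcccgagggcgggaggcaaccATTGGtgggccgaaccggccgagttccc
H3f3b: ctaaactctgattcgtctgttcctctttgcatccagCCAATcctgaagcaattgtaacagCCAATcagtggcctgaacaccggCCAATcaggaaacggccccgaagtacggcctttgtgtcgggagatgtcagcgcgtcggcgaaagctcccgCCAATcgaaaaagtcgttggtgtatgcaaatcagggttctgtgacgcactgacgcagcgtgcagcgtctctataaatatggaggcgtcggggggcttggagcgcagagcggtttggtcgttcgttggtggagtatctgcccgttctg
Hmgn2: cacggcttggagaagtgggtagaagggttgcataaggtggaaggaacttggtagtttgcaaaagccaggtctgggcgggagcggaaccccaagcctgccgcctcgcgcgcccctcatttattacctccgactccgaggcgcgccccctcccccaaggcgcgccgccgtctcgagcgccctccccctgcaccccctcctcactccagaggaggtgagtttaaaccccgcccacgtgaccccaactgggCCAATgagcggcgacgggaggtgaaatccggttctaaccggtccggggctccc
Nasp: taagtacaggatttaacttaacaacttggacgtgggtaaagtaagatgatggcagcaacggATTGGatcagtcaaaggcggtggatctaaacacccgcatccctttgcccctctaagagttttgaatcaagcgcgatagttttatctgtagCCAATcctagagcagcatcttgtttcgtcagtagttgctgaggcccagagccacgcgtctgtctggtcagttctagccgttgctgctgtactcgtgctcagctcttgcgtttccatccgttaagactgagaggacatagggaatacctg

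The H3f3b window held 4 CCAAT motifs, all on the gene's strand and beginning at −214, −190, −167 and −97, counted from the gene's start. That of H2az1 held 3, at −80 on the gene's strand and at −23 and 23 on the other strand. Of 27025 RefSeq promoters of the same length, 37.9% held at least 1, 12.2% at least 2, 3.56% at least 3 and 1.14% at least 4. Nasp had 2, at −189 and −99, and Hmgn2 had 1, at −3. The H3f3b window also held TATAAA at −27, a motif found on either strand in 14.2% of all windows, and the other 3 windows did not. The paired heat shock units GAANNTTC and TTCNNGAA, each equal to its own reverse complement, were in 0 of the 4 windows and in 7.95% and 8.4% of all windows. No motif overlapped another. A match describes letters only, and its absence says only that these letters are not in the window.

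Over the 3 treatments, 10 of the 11 member probes of slide type 1 and the Nasp probe of slide type 2 had centred means on the negative side, and 1 Nasp probe of slide type 1 lay on the positive side. The 5 H2az1 probes change to the positive side when the arrays are not centred. The other 7 keep their side, but 6 of them move by at least 1 SD. In the fit of probes with limma and an adjusted p under 0.05, 6 member probes of slide type 1 passed on the negative side, where 5.09% of all probes did, and 1 on the positive side, where 11% did. The Nasp probe of slide type 2 passed on the negative side, where 24.4% of all probes did, against 28.9% on the positive side. Since the genes were chosen by this contrast, nothing is read from these counts.

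**Figure D1:**
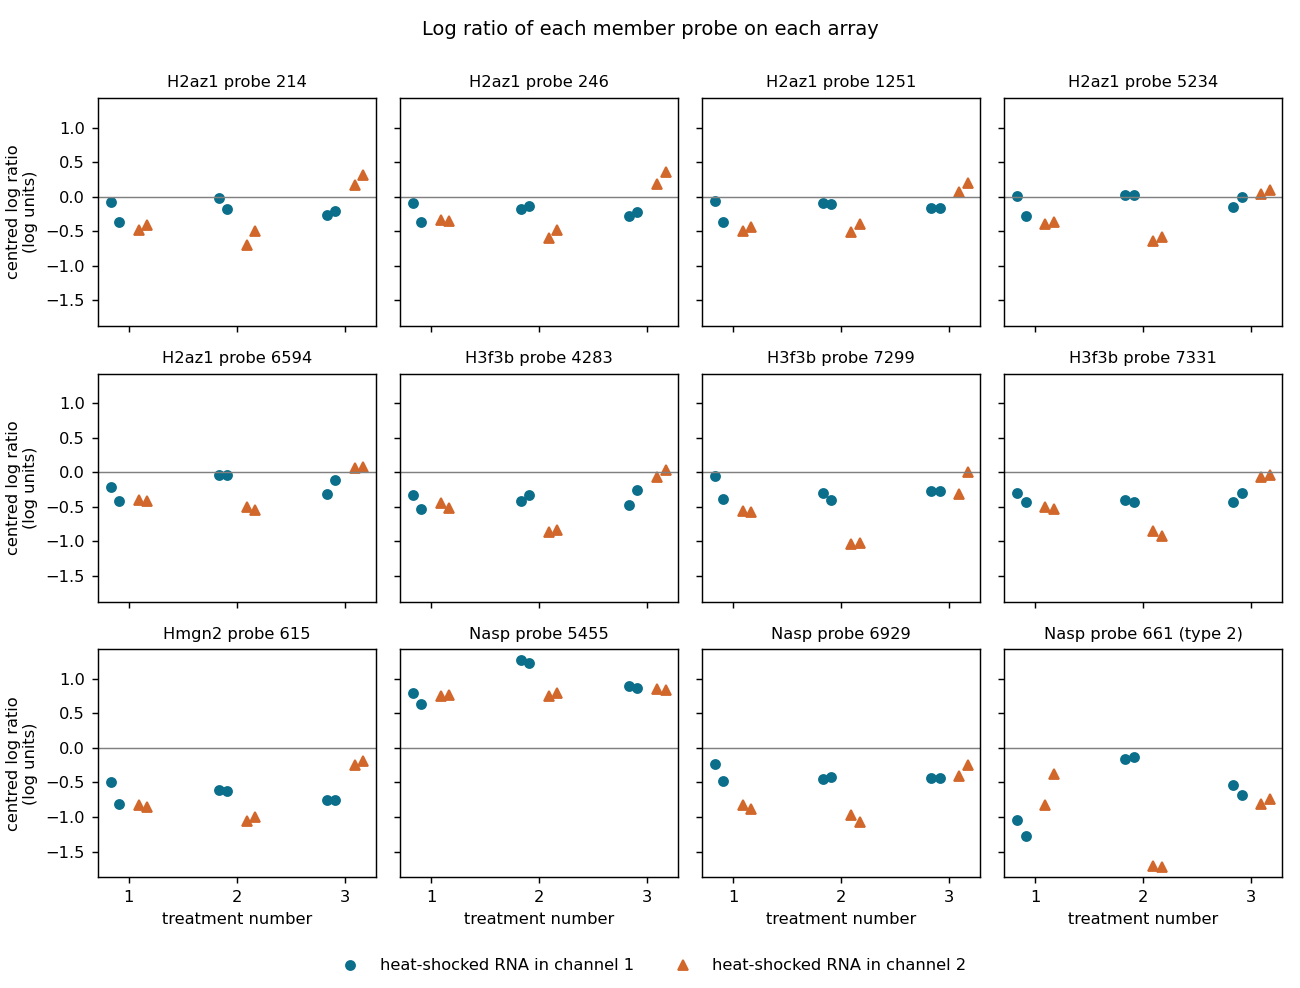
Centred log ratio in log units (vertical axis) of the 12 member probes on each array, by treatment number (horizontal axis), with circles for heat-shocked RNA in channel 1 and triangles for heat-shocked RNA in channel 2; each treatment has 2 arrays per channel order. Nasp probe 5455 stays above 0 on 12 of 12 arrays, Hmgn2 stays below 0 on 12 of 12, and the H2az1 probes, whose means turn positive without centring, lie above 0 on both channel 2 arrays of treatment 3.

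The variant histone H3f3b had 3 probes that gave nearly the same value. Probe 4283 had −0.46, −0.61 and −0.19 units in treatments 1, 2 and 3. Probe 7299 had −0.39, −0.69 and −0.22 units, and probe 7331 had −0.44, −0.65 and −0.21. In all 3 probes treatment 2 lay farthest from 0 and treatment 3 nearest. The means were −0.42 ± 0.21, −0.43 ± 0.24 and −0.43 ± 0.22 units (SD, n = 3 treatments each), which are 1.34- to 1.35-fold with base 2 and 1.52- to 1.54-fold with the natural log. Between 0.573% and 0.664% of all probes of the slide type lay at or below them. The 3 probes were on the negative side on 11, 12 and 12 of 12 centred arrays. Without centring the 3 means were −0.12 ± 0.48, −0.13 ± 0.49 and −0.13 ± 0.48 units, nearer 0 than their SD.

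The single arrays of H3f3b differed more than the 3 probes did. Over the 3 probes, the 6 values of treatment 2 with heat-shocked RNA in channel 1 ran from −0.43 to −0.30 units, and the 6 with it in channel 2 from −1.04 to −0.84. The orders did not overlap there, but each set of 6 values is 3 probes on the same 2 arrays. How many of all probes had such a gap was not counted, so it is not read as particular to H3f3b. In treatment 3 the orders overlapped over the 3 probes together. Values ran from −0.47 to −0.26 (median −0.29) for heat-shocked RNA in channel 1 and from −0.32 to 0.03 (median −0.05) with it in channel 2. This overlap came from 1 array of probe 7299, at −0.32 with heat-shocked RNA in channel 2. Within probes 4283 and 7331 the orders did not overlap in treatment 3 either. H3f3a, the other gene for H3.3, was annotated only on probes that also carry alpha-globin symbols (1 on slide type 1 and 19 on slide type 2), and no value is given for it.

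The other variant histone gene, H2az1, lay nearer 0, and on which side depended on the centring. Its 5 probes had −0.36 to −0.26 units in treatment 1, −0.35 to −0.28 in treatment 2 and −0.07 to 0.01 in treatment 3. Averaged over both channel orders, all 5 probes thus lay on the negative side in treatments 1 and 2, and near 0 in treatment 3. Their means were −0.23 ± 0.20 for probe 214, −0.21 ± 0.19 for probe 246, −0.21 ± 0.17 for probe 1251, −0.19 ± 0.16 for probe 5234 and −0.24 ± 0.15 for probe 6594 (SD, n = 3 treatments each), and without centring 0.077, 0.097, 0.095, 0.12 and 0.067. These centred means are 1.14- to 1.18-fold with base 2 and 1.21- to 1.27-fold with the natural log, and 3.50% to 6.60% of all probes lay at or below them. Among the 5 probes, 1 passed the fit described above.

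On single arrays the centred H2az1 values of treatment 1 were −0.41 to 0.0043 units for heat-shocked RNA in channel 1 and −0.49 to −0.33 in the other order, over 5 probes and 2 arrays each. Treatment 2 had −0.18 to 0.02 and −0.70 to −0.39 units in the same orders. Treatment 3 had −0.31 to −0.0019 for heat-shocked RNA in channel 1 and 0.03 to 0.36 in the other order, so all 10 values of the last order lay on the positive side. The share of all probes with such a split was not counted. Without these channel 2 arrays of treatment 3, on which H2az1 stood apart, the 5 means were −0.31 to −0.21 units.

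Hmgn2 had the mean farthest on the negative side among the member probes of slide type 1. With heat-shocked RNA in channel 1, probe 615 had −0.49 and −0.81 units in treatment 1, −0.61 and −0.62 in treatment 2 and −0.75 and −0.75 in treatment 3. With it in channel 2, the values were −0.82 and −0.85, −1.06 and −0.99, and −0.25 and −0.19. All 12 arrays lay on the negative side, and the channel 2 arrays of treatment 3 were nearest 0. The treatments had −0.74, −0.82 and −0.48 units, with a mean of −0.68 ± 0.17 (SD, n = 3), which is 1.60-fold with base 2 and 1.98-fold with the natural log. Of all probes, 0.273% lay at or below it. Without centring the mean was −0.38 ± 0.44 (SD, n = 3).

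The 3 probes for the chaperone Nasp disagreed. Probe 6929 on slide type 1 had −0.23 and −0.48 units in treatment 1, −0.46 and −0.43 in treatment 2 and −0.43 and −0.43 in treatment 3 with heat-shocked RNA in channel 1. In the other order it had −0.83 and −0.88, −0.97 and −1.07, and −0.40 and −0.25. It lay on the negative side on 12 of 12 arrays, and its treatments had −0.61, −0.73 and −0.38 units, with a mean of −0.57 ± 0.18 (SD, n = 3), or 1.49-fold with base 2 and 1.77-fold with the natural log. Of all probes, 0.365% lay at or below it. Without centring the mean of probe 6929 was −0.27 ± 0.44 units (SD, n = 3).

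Probe 5455 for Nasp, on the same arrays, had 0.79 and 0.64 units in treatment 1, 1.28 and 1.23 in treatment 2 and 0.90 and 0.86 in treatment 3 with heat-shocked RNA in channel 1. With it in channel 2, the values were 0.76 and 0.77, 0.74 and 0.80, and 0.86 and 0.84. It was on the positive side on 12 of 12 arrays. The treatments had 0.74, 1.01 and 0.87 units and the mean was 0.87 ± 0.14 (SD, n = 3), which is 1.83-fold with base 2 and 2.39-fold with the natural log, and 1.37% of all probes lay above it. Probe 5455 exceeded probe 6929 on every array, by 1.02 to 1.87 units with a median of 1.46, and their r over the 12 arrays was 0.32. This difference within an array does not depend on the centring.

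Slide type 2 carried probe 661 for Nasp. It had −1.04 and −1.28 units in treatment 1, −0.16 and −0.13 in treatment 2 and −0.53 and −0.68 in treatment 3 with heat-shocked RNA in channel 1. In the other order it had −0.82 and −0.38, −1.71 and −1.72, and −0.81 and −0.74. The arrays of treatment 2 thus held both the values nearest 0 and those farthest from it, 1 kind in each channel order. The means were −0.64 units for heat-shocked RNA in channel 1 and −1.03 in the other order. The treatment values were close, at −0.88, −0.93 and −0.69, with a mean of −0.83 ± 0.13 (SD, n = 3), which is 1.78-fold with base 2 and 2.30-fold with the natural log, and 0.234% of all probes of slide type 2 lay at or below it. Probes 661 and 6929 thus lay on the side opposite to probe 5455. The mean of both Nasp probes of slide type 1 was 0.15 ± 0.09 (SD, n = 3), a value near neither of them. Which transcript each probe matches was not analysed here. RefSeq also lists pseudogenes of Hmgn2 and Nasp, and a probe need not tell a gene from such a copy.

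**Figure D2:**
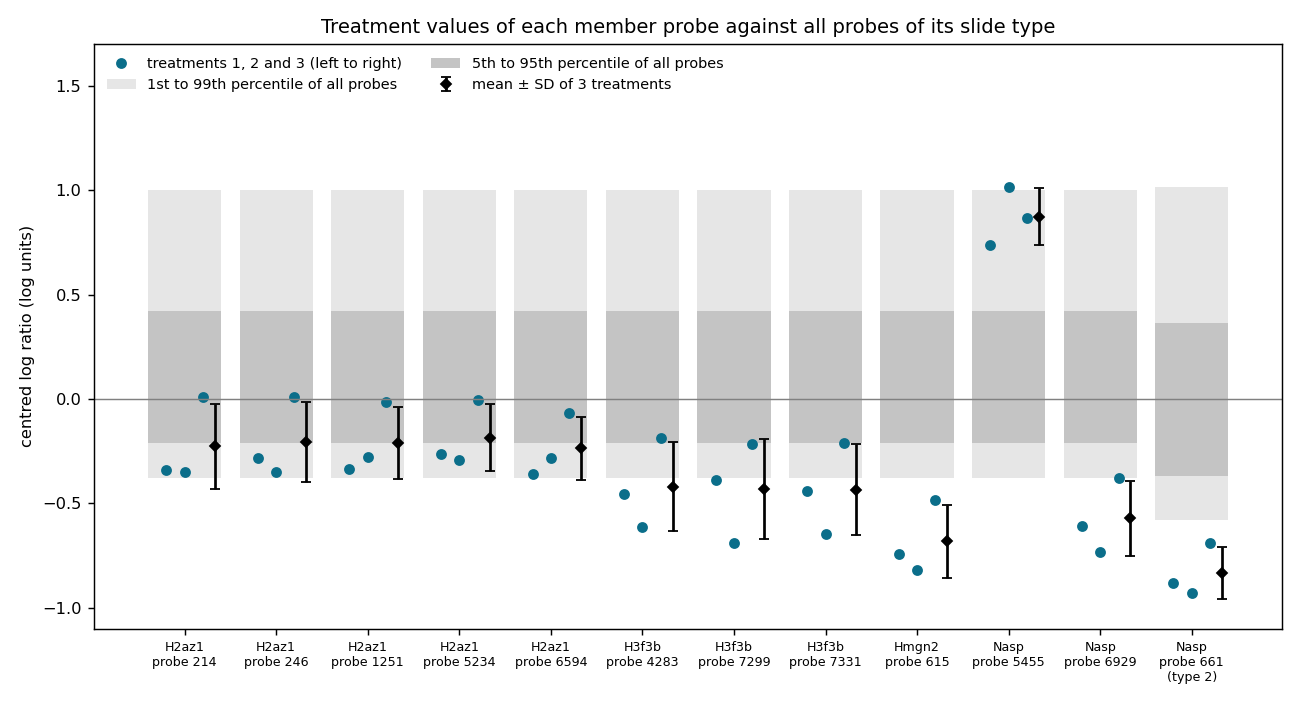
Centred log ratio in log units (vertical axis) of each member probe (horizontal axis) in treatments 1, 2 and 3 (circles, left to right) and as the mean ± SD of the 3 treatments (diamonds), over bars for the 5th to 95th and the 1st to 99th percentile of all probes of its slide type. The means of H3f3b, Hmgn2 and Nasp probes 6929 and 661 lie below the lower bar, and Nasp probe 5455 lies on the positive side at 0.87; the H2az1 means, between −0.24 and −0.19, turn positive without centring.

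**Figure D3:**
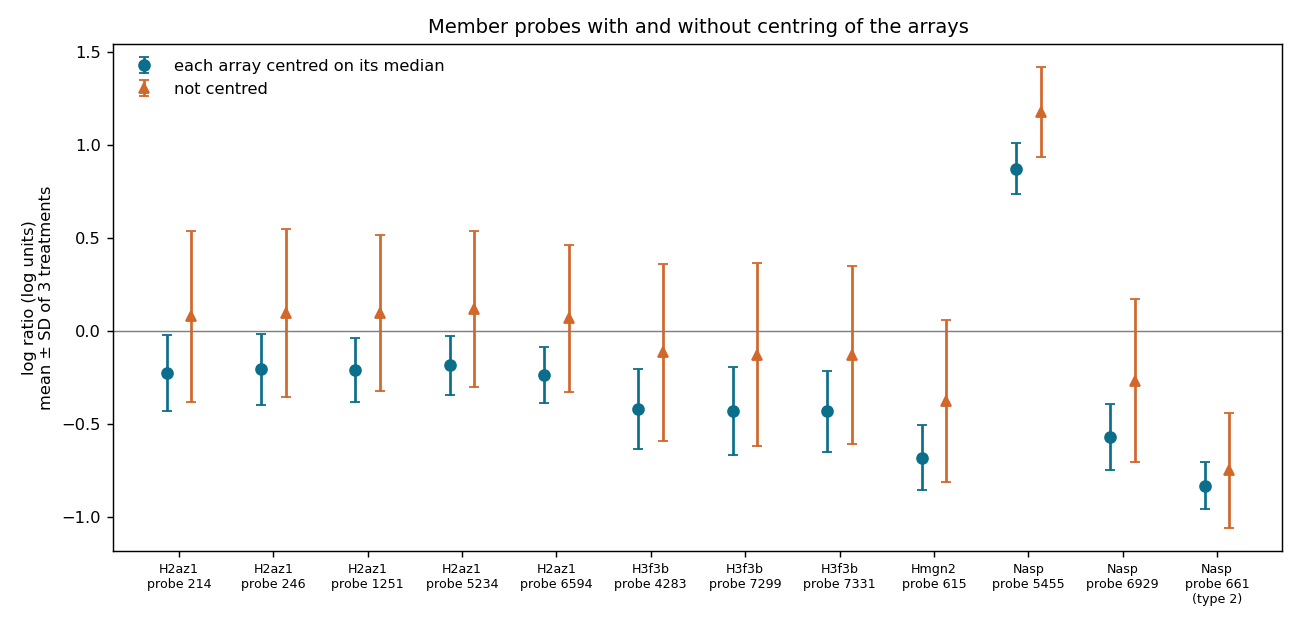
Mean ± SD over 3 treatments of the log ratio in log units (vertical axis) of each member probe (horizontal axis), with every array centred on its median (circles) and not centred (triangles). The 5 H2az1 means lie below 0 when centred and between 0.067 and 0.12 when not. The other 7 probes keep their side, with the H3f3b means at −0.13 to −0.12 when not centred.

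Differences between members within an array are free of the centring. Hmgn2 lay below the mean of the 5 H2az1 probes on 12 of 12 arrays of slide type 1, by a log ratio difference of −0.61 to −0.36 units, and the treatments gave −0.43, −0.51 and −0.47 (mean −0.47 ± 0.04, SD, n = 3). The SD of this difference over the arrays was 0.073 units, against 0.27 for Hmgn2 alone. H3f3b, as the mean of its 3 probes, lay below H2az1 on 12 of 12 arrays, with −0.11, −0.34 and −0.19 units in the 3 treatments (mean −0.22 ± 0.12, SD, n = 3). Hmgn2 lay below H3f3b on 12 of 12 arrays, with a mean of −0.25 ± 0.08 units (SD, n = 3). Nasp probe 6929 and Hmgn2 had no fixed order: the Nasp probe was the lower on 5 arrays and the higher on 7.

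**Figure D4:**
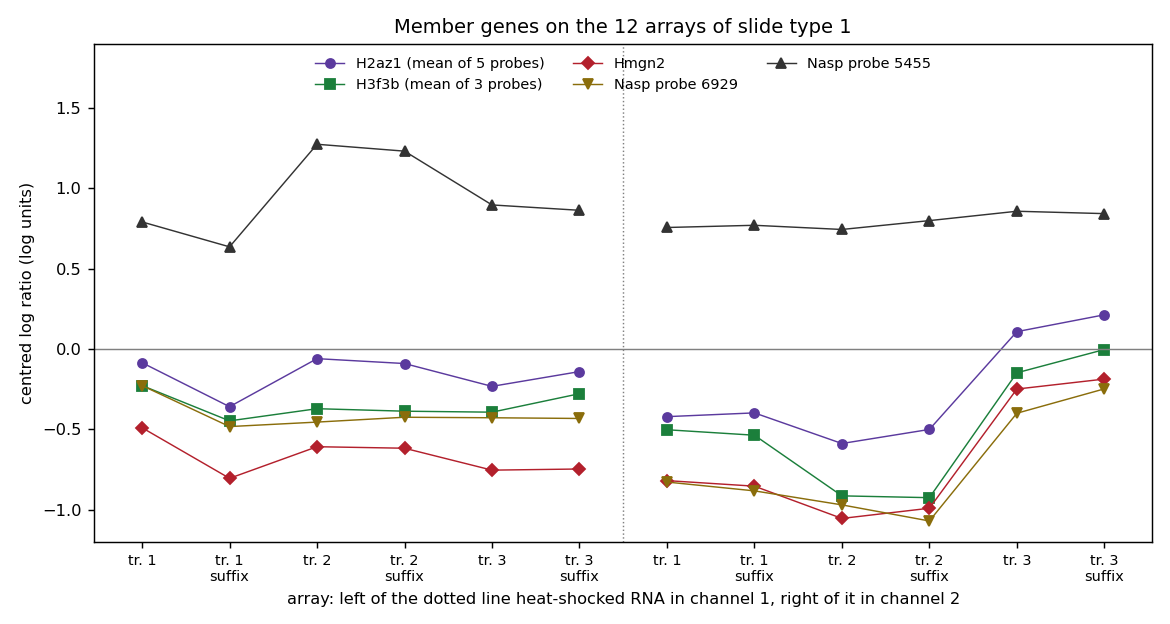
Centred log ratio in log units (vertical axis) of H2az1 (mean of 5 probes), H3f3b (mean of 3 probes), Hmgn2 and both Nasp probes on the 12 arrays of slide type 1 (horizontal axis, by treatment, with and without the suffix); lines only join the points of a gene within a channel order. H2az1 lies above H3f3b and H3f3b above Hmgn2 on 12 of 12 arrays, whether or not arrays are centred, although without centring the H2az1 mean lies on the positive side.

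Across the 12 arrays of slide type 1, the 45 pairs among the 10 probes on the negative side had r = 0.75 to 0.99 with a median of 0.90. The 10 pairs of H2az1 probes had 0.84 to 0.97 and the 3 pairs of H3f3b probes 0.86 to 0.97. H2az1 with Hmgn2 gave 0.85 to 0.99 and H2az1 with H3f3b 0.75 to 0.94. Both ranges overlapped those of pairs within H2az1 and within H3f3b, though H2az1 with H3f3b reached lower. Nasp probe 5455 had r of 0.17 to 0.56 with the other 10. All 12 points share their arrays, channel orders and treatments, and these r values are descriptions.

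By Pearson r over the 12 arrays, the 3 probes of other genes most like each member probe were found. Hmgn2 was most like H2az1 probe 246 (r = 0.99), and H2az1 probe 246 was in turn most like Hmgn2. Next to Hmgn2 came Ppia and Pabpn1 (r = 0.98 each). H2az1 probe 214 was most like Arf1, Eif4g2 and Pabpn1 (0.99 each), probe 1251 like Pabpc1, Rpl7 and Psma4, probe 5234 like Lmnb1, Bzw2 and Eif4b and probe 6594 like Ftl1, Rpl3 and Clint1, all with r of 0.98 or 0.99. The nearest genes to H3f3b were Eif4b (0.98), Tubb4b and Tubb2b (0.97 each) for probe 4283, Tubb4b (0.97), Tubb2b (0.96) and Phgdh (0.95) for probe 7331, and Csnk1e and Plk1 (0.98 each) and Dcakd (0.97) for probe 7299. Nasp probe 6929 had Nhp2, Uqcrc1 and Ppp6r3 (0.97 each), and probe 5455 had AU023762 (0.95), BC046251 (0.93) and Osbpl8 (0.90). The share of all probes of slide type 1 with r over 0.9 ran from 0.117% for Nasp probe 5455 to 4.08% for H2az1 probe 1251. On slide type 2, Vdac1 had r = 0.998 and Macroh2a2 and Gm3531 0.996 with probe 661, where 20.4% of all probes exceeded 0.9.

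The channel component, the value with heat-shocked RNA in channel 1 minus the average of both channel orders (each turned to the same side), is a measure by which the genes were not chosen. In limma, 22.2% of all probes of slide type 1 had such a channel component at an adjusted p under 0.05, and 0 of the 11 member probes did. At an unadjusted p under 0.05, which at least 22.2% of all probes met, the members' count was also 0. The lowest adjusted p were 0.141 for Nasp probe 6929, with a component of 0.16 ± 0.19 units (SD, n = 3), and 0.176 for H3f3b probe 7299, with 0.15 ± 0.20. Hmgn2 had 0.01 ± 0.25 (adjusted p = 0.934 in limma). The component was 0.18 to 0.34 units in treatment 2 and −0.27 to −0.05 in treatment 3 over the 10 probes on the negative side, so it changed side between the treatments. On slide type 2, 0.0130% of all probes passed, and Nasp probe 661 did not, with −0.28, 0.79 and 0.09 units in treatments 1, 2 and 3 (mean 0.20 ± 0.54, SD, n = 3, limma adjusted p = 0.736). A p above the threshold with 3 treatments does not show that the channel orders gave the same value.

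Arrays with and without the suffix, within a channel order and treatment, differed by a median of 0.03 to 0.16 units over the 12 member probes. Over all probes the median gap was 0.15 units on slide type 1 and 0.17 on slide type 2. The median SD over treatments was 0.098 and 0.093 units for all probes of the slide types, against 0.13 to 0.24 for the member probes.

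Other genes of histones, HMG proteins, histone chaperones, the complexes that load H2A.Z and the processing of histone messages were taken from 5 lists. In the fit of genes, slide type 1 had 5.73% of all genes on the positive side of the test and 5.65% on its negative side (220 and 217 genes, against 254 and 119 with centring on probes with 1 symbol and 263 and 5 without centring). The 38 list genes measured there included 8 that passed on the negative side and 0 on the other, and 6 of these 8 change to the positive side without centring, where 0 list genes passed. The list count was also 0 without treatment 1 and with only the arrays that had heat-shocked RNA in channel 2, and with only those that had it in channel 1 it was 3 on each side. Slide type 2 had 18.5% and 31.9% on these sides (753 and 1299 genes), and the larger share changed side with centring on probes with 1 symbol (1249 and 861) and without centring (76 and 65). Its 39 list genes included 5 that passed on the positive side and 19 that passed opposite, and 0 of these 24 changed side without centring, although 0 then passed. The count of 24 was 0 in either channel order alone, 4 without the treatment 3 arrays of heat-shocked RNA in channel 2 and 8 with arrays scaled to a common median absolute deviation. The list median was −0.06 units on slide type 1 and −0.14 on slide type 2, against −0.04 and −0.05 for all genes.

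Among the HMG proteins, those that passed on the negative side were 3 of the 4 genes measured on slide type 1 and 4 of the 6 on slide type 2. Of all genes, 5.65% and 31.9% passed on that side of slide types 1 and 2. Hmgb3 had −0.34 ± 0.17 units on slide type 1 (SD, n = 3, limma adjusted p = 0.0125). Hmgb1, an abundant DNA-bending HMG-box protein, had −0.24 ± 0.11 on slide type 1 (limma adjusted p = 0.0290) and −0.43 ± 0.10 on slide type 2 (limma adjusted p = 3.99e-05). Hmga2, an AT-hook protein of embryonic cells, had −0.20 ± 0.05 and −0.49 ± 0.11 units on slide types 1 and 2. Without centring, Hmgb1 and Hmga2 lie on the positive side of slide type 1, at 0.06 and 0.10, and stay on the negative side of slide type 2. Hmgb2 had −0.50 ± 0.13 and Hmgn1, the close relative of Hmgn2, −0.25 ± 0.07, both on slide type 2 (SD, n = 3, limma adjusted p = 1.08e-05 and 0.00246). Hmgxb4 passed on the positive side of slide type 2, where 18.5% of all genes did.

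Of the histone chaperones, 1 of 19 measured genes passed on slide type 1: Anp32e, which removes H2A.Z from nucleosomes, with −0.23 ± 0.06 units (SD, n = 3, limma adjusted p = 0.0298) and 0.08 without centring. That is 5.26% of this list on the negative side, near the 5.65% of all genes. On slide type 2, 9 of 16 passed on the negative side and 2 on the positive, where 31.9% and 18.5% of all genes did. The smallest p belonged to Rbbp7, a histone-binding subunit shared by several chromatin complexes, with −0.36 ± 0.10 units, and to Set, a chaperone and phosphatase inhibitor, with −0.38 ± 0.16. Anp32a and Tonsl followed with −0.28 ± 0.07 and −0.26 ± 0.08 (SD, n = 3 each). Set and Anp32a were also measured on slide type 1, where neither passed, at −0.15 ± 0.05 and −0.10 ± 0.14 (limma adjusted p = 0.126 and 0.395).

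The complexes that load H2A.Z had 9 measured genes on slide type 1, of which 3 passed on the negative side and 0 on the other: Morf4l1 (−0.29 ± 0.07 units), Brd8 (−0.29 ± 0.12) and Yeats4 (−0.27 ± 0.10; SD, n = 3 each), which lie at 0.015, 0.013 and 0.032 without centring. On slide type 2, 2 of 8 passed on the negative side, Dmap1 with −0.37 ± 0.10 and Ruvbl2 with −0.24 ± 0.13, and 1 on the positive, Ep400, the ATPase of the TIP60 complex, with 0.19 ± 0.06. Ep400 was also measured on slide type 1, where it did not pass, at 0.01 ± 0.06 (limma adjusted p = 0.930). Of the histone message processing genes, Slbp, which binds the stem-loop of replication-dependent histone messages, passed on both slide types, with −0.35 ± 0.09 units (SD, n = 3, limma adjusted p = 0.00388) and −0.26 ± 0.09 (limma adjusted p = 0.00213). It kept its side without centring, at −0.05 and −0.18. This list had 5 genes on slide type 1, of which 1 passed, and 6 on slide type 2, of which 2 passed, the other being Cpsf3 with −0.17 ± 0.09.

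Few other histone genes had a probe with 1 symbol. On slide type 1 the list held 1, H2aj, at 0.04 ± 0.08 units (SD, n = 3, limma adjusted p = 0.72). Outside the list, H1f8 had 0.05 ± 0.15, H2ac24 −0.04 ± 0.08 and H4c18 0.04 ± 0.04 there, and none of these passed (limma adjusted p = 0.712 to 0.741). All 3 list members measured on slide type 2 passed, 2 with a negative and 1 with a positive mean. Of all genes of that slide type, 31.9% were called negative and 18.5% positive, so 3 genes say little. Without centring, or in either channel order alone, 0 chromatin list genes passed there. Cenpa, the centromeric H3 variant, had −0.33 ± 0.11 and Macroh2a2, a macroH2A variant, −0.29 ± 0.08, while H2ac8, a replication-dependent H2A gene, lay on the positive side at 0.20 ± 0.07 (SD, n = 3, limma adjusted p = 3.90e-04, 8.97e-04 and 0.00945).

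**Figure D5:**
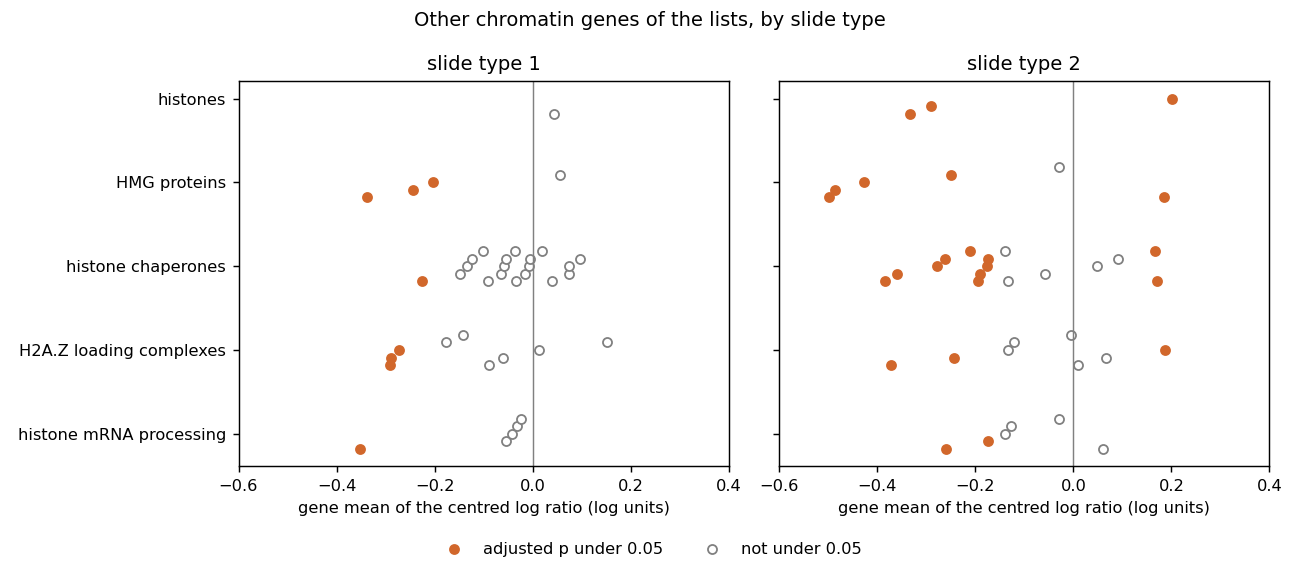
Mean over 3 treatments of the centred log ratio in log units (horizontal axis) of each measured gene of the 5 chromatin lists (vertical axis), by slide type, with filled points for genes whose limma adjusted p was under 0.05. On slide type 1 the 8 filled points lie on the negative side, 6 of which change side without centring. On slide type 2, 19 lie on the negative and 5 on the positive side. Of all genes, 5.65% passed on the negative and 5.73% on the positive side of slide type 1, and 31.9% and 18.5% on slide type 2.

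Markers of cell types that an embryo can hold were compared in the same fit. The erythroid list had 1 gene on slide type 1 and 5 on slide type 2, of which 0 passed in limma, with 0 and 1 at an unadjusted p under 0.05, and the gene means ran from −0.14 to 0.09 units. Of yolk sac endoderm markers, 0 of 4 passed on slide type 1, also at an unadjusted p under 0.05. How many of all genes had an unadjusted p under 0.05 was not counted. Among all genes, a limma adjusted p under 0.05 was reached by 5.65% (negative) and 5.73% (positive) on slide type 1. For slide type 2 these shares were 31.9% and 18.5%. The marker lists hold too few measured genes to be judged against such shares. No heart muscle marker had a probe with 1 symbol. Of neural markers, Tubb3 passed on slide type 1, at −0.21 ± 0.04 (SD, n = 3, limma adjusted p = 0.0359) and 0.09 without centring, and Sox11 on slide type 2, at −0.45 ± 0.07 (limma adjusted p = 1.64e-05), while Nes did not pass on slide type 1. Their part in the values of the 4 genes was not tested.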

How the data were processed

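Total RNA of heat-shocked and control mouse embryos was compared on 24 arrays with 2 channels. The deposited tables hold the authors' log ratios, treated here as a score: 7680 probes and 12 arrays per slide type, 0 missing values and 0 unused columns. How the ratios were corrected and normalized, their log base and their numerator are not given in the sources used, and no spot intensities were used. Per the labels' source names, heat-shocked RNA was in either channel, and the sign was turned where it was channel 2. The median of all probes was subtracted from each array. Arrays of a channel order were averaged, then both orders, and the 3 treatments were the replicates. limma 3.58.1 in R 4.3.3 (lmFit and eBayes on an intercept) tested probes or genes, with Benjamini-Hochberg adjustment at 0.05 over all of a slide type. The members and the 5 chromatin and 4 marker lists were chosen with earlier results of these data known. Of a list, up to 4 genes with the smallest p that passed on a slide type were named, or up to 2 where none passed, and other list genes were named after their values were seen. Gene values are means over probes with that 1 symbol. In data simulated with the probes' own spreads, limma recovered 74 of 100 changes of 0.5 units and 98 of 100 of 1 unit on slide type 1, with 5 of 7480 unchanged probes called, and 72, 93 and 0 on slide type 2. The simulated probes varied independently, without array or channel order effects. These counts therefore do not give the error rate of the calls reported here. Depth has no meaning for these arrays, and their number limits the precision. Figures were drawn with matplotlib 3.10.9.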

Additional observations from a re-analysis of the deposited data

Results flagged for a closer look

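Of 24 groups of 6 arrays (a member probe in a channel order), 3 held an array whose gap to the nearest other, relative to the range, exceeded Dixon's critical value. Chance alone flags about 1 in 20 groups of independent values. These groups hold paired arrays of 3 treatments and share arrays with each other, so that rate need not apply. All 3 were in treatment 1 with heat-shocked RNA in channel 1. The array with the suffix stood low for H2az1 probe 1251, at −0.37 units, a probe whose mean turns positive without centring. The array without it stood high for Nasp probe 6929, at −0.23, and for H3f3b probe 7299, at −0.047.

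In 6 cases both arrays of a channel order lay on the opposite side to both arrays of the other, a difference that was not tested within a treatment. All were H2az1 probes, whose means turn positive without centring. The share of all probes with such a split was not counted, so it is not read as particular to H2az1. In treatment 3 both arrays of channel 1 heat-shocked RNA were negative and those with it in channel 2 positive, with channel components of −0.24 for probe 214, −0.27 for probe 246, −0.15 for probe 1251, −0.071 for probe 5234 and −0.14 for probe 6594. In treatment 2 probe 5234 had the orders the other way round, with a component of 0.32. The cause was not tested.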

How the results depend on the processing

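Of the 12 member probes, 12 kept their side and moved by less than 1 SD under each alternative except 3: no centring (1 kept, 6 moved, 5 changed side) and either channel order alone (1 moved each). For some alternatives this outcome was fixed in advance. With 3 treatments, leaving out 1 cannot move a mean by 1 SD, and as each member mean exceeded its SD, no side could change. The treatment as a replicate block returns the same means by design. These settings are therefore no check on the member probes. Without centring the H2az1 probes 214, 246, 1251, 5234 and 6594 had 0.077, 0.097, 0.095, 0.12 and 0.067 units and the gene 0.091. The counts depended more on the choices. They are given as probes, genes, list genes and probes with a channel component, and were 1235, 437, 8 and 1705 on slide type 1 and 4096, 2052, 24 and 1 on slide type 2. On slide type 1 no centring gave 268 genes, 0 list genes and 4081 components, and left 14 called probes on the negative side against 1210 on the positive, and 5 genes against 263. Centring on probes with 1 symbol gave 5 list genes, and moved the split of called probes to 996 positive and 221 negative, against 844 and 391 as reported, and on slide type 2 to 3283 and 1205, against 2219 and 1877, where the genes went to 1249 and 861, against 753 and 1299. Heat-shocked RNA in channel 1 only gave 2402 probes, 839 genes and 6 list genes (3 on each side), and in channel 2 only 776, 194 and 0 list genes. Arrays with the suffix only gave 797, 216, 3 and 923. Without the probes of lowest SD (25%) there were 732, 229 and 4. Leaving out 1 treatment gave 881 to 1203 probes, 178 to 440 genes, 0 to 7 list genes and 541 to 2656 components. With the treatment as a replicate block there were 762 genes and 3124 components. On slide type 2 no centring gave 557 (422 positive, 135 negative), 141 (76 and 65), 0 and 0, a common median absolute deviation 1144, 750, 8 and 3, channel 1 only 226, 50 and 0, and channel 2 only 700, 24 and 0. The channel components numbered 0 with centring on probes with 1 symbol, 2 without the suffix arrays, 0 with them only, 1890 with the replicate block, and 0 with a running median in probe order subtracted, a setting added after seeing the data. Leaving out 1 treatment gave 2315 to 4920, 1227 to 2209, 16 to 23 and 0 to 1362. Without the treatment 3 arrays of heat-shocked RNA in channel 2, also added after seeing the data, there were 720, 392 and 4. The causes were not tested. In the replicate block, which takes the 12 arrays as observations, the correlation within a treatment was 0.067 on slide type 1 and −0.22 on slide type 2. Signal over background was not known, so the limit set by dim spots could not be given.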
